A study of Taeniopygia guttata with 48 samples.

Results

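Gene expression was compared in the nucleus taenia of adult female zebra finches (Taeniopygia guttata) that hatched from eggs given testosterone or oil. The testosterone group had 3 RNA libraries of females hatched from eggs injected on the day of laying with 500 pg of testosterone, dissolved in 5 µl of peanut oil. The control group had 3 RNA libraries from females whose eggs had received 5 µl of peanut oil alone. Both groups were adult females, and nucleus taenia tissue was taken from frozen brains with a 1 mm punch. The 3 libraries of a group are labelled as separate samples, but no label ties each one to a different bird. All p-values therefore refer to the spread among libraries, which may be technical in part. The series holds 24 RNA libraries in 8 groups of 3, by sex, region and treatment; its 24 methylation samples were not analysed here. Of 17475 genes in the table, 13396 (76.7%) had a mean of at least 1 FPKM over the 6 libraries and make up the comparison. FPKM counts sequenced fragments relative to the length of the transcript and to the number of fragments mapped in the library. Another 4079 genes lay below that mean, and 1580 of these were at 0 in all 6 libraries.

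Mothers of egg-laying birds deposit androgens in the yolk, and experimental egg injection mimics a higher maternal dose. Androgens act through the androgen receptor and, after conversion by aromatase, through oestrogen receptors. The nucleus taenia is regarded as the avian counterpart of part of the mammalian medial amygdala, is rich in sex steroid receptors, and takes part in social and sexual behaviour. The comparison asks whether a prenatal dose goes with a difference in the adult tissue. The files give Ensembl-type identifiers without symbols, and the gene table at hand matched 0 of them. The receptors, aromatase and markers of the region or of its cell types could therefore not be looked up, and the punch was not checked against such markers.

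Genes above 0 numbered 14671, 14669 and 14701 in testosterone replicates 1 to 3 and 14659, 14921 and 14896 in control replicates 1 to 3. Median FPKM over all genes was 11.4, 11.4 and 11.5 in the testosterone libraries and 11.1, 11.5 and 10.9 in the control libraries. The 10 most abundant genes took 7.60 to 10.5% of the summed FPKM in the testosterone libraries and 8.21 to 9.87% in the control libraries. FPKM does not keep the read number, so absolute depth is unknown. Relative depth, estimated from the steps between low values, was 0.796, 0.919 and 0.844 times the median library of the series in the testosterone libraries and 0.974, 1.06 and 1.01 times in the control libraries. By this estimate every testosterone library was shallower than every control library. The estimate is rough, since 26.4% of pairs of libraries lay within 3% of the fitted depths. The nearest values, 0.919 and 0.974, may not differ. Of the 13396 genes, 201, 213 and 250 were listed at 0 in the testosterone libraries and 189, 166 and 185 in the control libraries. With 3 against 3 the smallest two-sided exact permutation p is 0.1, so by that test neither difference can pass 0.05. The part of depth in the results below was not tested.

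Control replicate 3 stood somewhat apart from the other 5 libraries. Its mean Pearson r with them, across genes on the log2(FPKM + 1) scale, was 0.885, while the others had 0.914 to 0.930. On the first principal component, which held 35.1% of the variance, it lay at 83.5 and the other 5 libraries between −33.5 and −2.06. Over the whole series it did not stand apart by mean r. With the other 23 libraries its mean r was 0.889, within the 0.887 to 0.916 of 22 libraries.

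Differences between testosterone and control females were small for most genes. The difference of group means, testosterone minus control on the log2(FPKM + 1) scale, had a median of 0.03 over the 13396 genes, and its quartiles were −0.23 and 0.29. The median absolute difference was 0.26. Of the genes, 7210 (53.8%) were higher and 6186 lower in the testosterone mean. In a bulk punch, fewer cells of a type and less RNA per cell cannot be told apart.

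No gene passed an adjusted p of 0.05. The limma fit of the 6 libraries called 0 of 13396 genes (0%), with a smallest Benjamini-Hochberg adjusted p of 0.698. At an unadjusted p under 0.05 it gave 884 genes (6.6%), 481 higher (3.59%) and 403 lower (3.01%) with testosterone. Without any treatment difference a share of 0.05 of genes would reach this on average. With same-numbered libraries paired, by adding the replicate number as a block, limma also called 0 genes (0%), with a smallest adjusted p of 0.588. The blocked fit gave 1123 genes (8.38%) at an unadjusted p under 0.05, of which 672 (5.02%) were higher and 451 (3.37%) lower. The lists shared 642 genes, which are 72.6% of the unpaired list and 57.2% of the paired one.

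The count of 0 depended on single libraries. Leaving out control replicate 1 gave 4 genes and leaving out testosterone replicate 2 gave 1 gene in limma. Each of these 5 genes was listed at 0 in at least 1 of the 6 libraries. Of 13396 genes, the unadjusted count of higher genes was 481 with all 6 libraries. It was 218 and 248 without testosterone replicates 1 and 2, and 933 without control replicate 2. The count of lower genes was 403 with all 6 libraries. It was 256 and 226 without the same testosterone libraries, 816 without control replicate 2 and 250 without control replicate 3.

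Differences were larger and less certain at low expression than at high expression. Among 1547 genes of 1 to 3 FPKM the median absolute log2 difference was 0.32, and among 2547 genes of 3 to 10 FPKM it was 0.30. It was 0.25 in 3668 genes of 10 to 30 FPKM, 0.23 in 3739 genes of 30 to 100 FPKM and 0.24 in 1895 genes of 100 FPKM and above. The added pseudocount of 1 shrinks the low levels most: with 0.1 in its place the values were 0.53 at 1 to 3 FPKM and 0.24 at 100 FPKM and above. Of the lowest level, 7.89% of genes differed by 2-fold or more on this scale, against 4.12% of the highest. The spread within groups was larger at low expression too. At 1 to 3 FPKM the median within-group SD was 0.40 in testosterone and 0.51 in control libraries. At 100 FPKM and above it was 0.19 and 0.33.

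For a gene's log2 difference, the 95% interval reached a median of 0.68 to either side over all genes, equal to 1.60-fold. It was 1.05 (2.07-fold) at 1 to 3 FPKM, 0.86 at 3 to 10 FPKM, 0.62 at 10 to 30 FPKM, 0.53 (1.44-fold) at 30 to 100 FPKM and 0.55 at 100 FPKM and above. At every level this reach exceeded the median absolute difference. Pairing narrowed it little: in the blocked fit it reached 0.67 to either side over all genes. The median standard error was 0.26 with the block and 0.28 without it. With the block the standard error was smaller in 50.7% of genes and the residual SD in 56.9%.

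**Figure D1:**
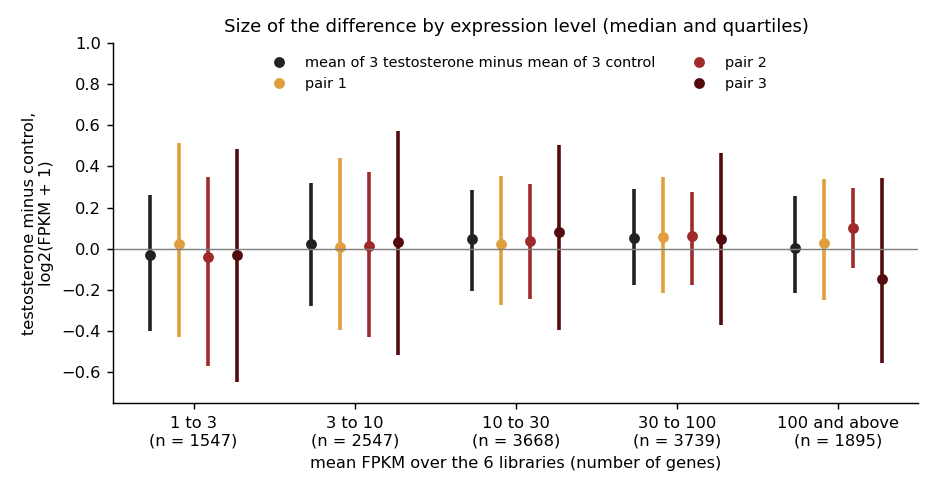
Testosterone minus control differences on the log2(FPKM + 1) scale (y axis) by mean FPKM of the gene (x axis), for the group means and for each same-numbered pair; points are medians and lines span the quartiles. The medians stay between −0.15 and 0.10 at every level, and pair 3 has the widest spread at every level.

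The 3 same-numbered pairs differed in size and in direction by level. Over all genes the median absolute difference was 0.33 in pair 1, 0.28 in pair 2 and 0.48 in pair 3, which contains control replicate 3. The testosterone library was the higher one for 52.7%, 55.0% and 51.0% of genes in pairs 1, 2 and 3. At 100 FPKM and above these shares were 53.1%, 63.3% and 42.1%, so pair 3 ran against the others among the most abundant genes. At 30 to 100 FPKM they were 55.4%, 58.2% and 53.1%.

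A gene's difference in one pair told little of its difference in another. Across the 13396 genes the pair differences correlated at r = 0.038 between pairs 1 and 2, 0.118 between pairs 1 and 3 and 0.108 between pairs 2 and 3. The pairs share no library. At 100 FPKM and above the values were 0.145, 0.162 and 0.0865, and at 1 to 3 FPKM they were 0.0016, 0.0737 and 0.0653. These are descriptions across genes, which are not independent replicates.

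Consistency was counted in 2 ways, as separation of the groups and as agreement of the pairs. For 1910 genes (14.3%) all 3 testosterone libraries lay on one side of all 3 control libraries, 1095 higher (8.17%) and 815 lower (6.08%). Agreement in direction of all 3 same-numbered pairs was found for 4395 genes (32.8%), 2568 higher (19.2%) and 1827 lower (13.6%). Separated groups always agree in pairs, so the 1910 genes are 43.5% of the 4395. Without any treatment difference, exchangeable libraries in groups of 3 would separate for a share of 0.1 of genes on average. This share equals the smallest two-sided exact permutation p. Agreement of 3 pairs asks less, so without a difference it would be more frequent still. The counts beyond such shares were not tested, and genes are not independent.

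Separated genes were less frequent at low expression. Groups did not overlap for 9.70% of genes at 1 to 3 FPKM, 13.1% at 3 to 10 FPKM, 14.5% at 10 to 30 FPKM, 16.4% at 30 to 100 FPKM and 14.8% at 100 FPKM and above. Agreement of the 3 pairs followed the same order, at 26.2%, 29.8%, 33.2%, 36.9% and 33.5%. Unadjusted p under 0.05 was reached by 3.49%, 5.85%, 6.57%, 8.02% and 7.39% of genes without the block and by 3.68%, 6.79%, 9.16%, 9.87% and 9.92% with it. All of these shares were lowest at 1 to 3 FPKM, where that of separated genes was near the 0.1 of exchangeable libraries. The shares at an unadjusted p were below 0.05 of genes at that level.

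The excess of higher over lower genes changed with the scale given to the libraries. Both scalings used here bring the libraries to a common level, so they pull toward an even split by construction. A shift of many genes and a difference in scale can therefore not be told apart. Of the separated genes 57.3% were higher with testosterone in the deposited FPKM, but 48.3% after median-ratio scaling and 50.6% after quantile normalization. Of the genes with 3 agreeing pairs 58.4% were higher as deposited, 50.9% after median-ratio scaling and 52.4% after quantile normalization. Of the genes at an unadjusted p under 0.05, 54.4% were higher as deposited and 44.4% after median-ratio scaling. With the block these shares were 59.8% and 50.8%. The median-ratio factors were 1.03, 1.02 and 1.01 in the testosterone libraries and 0.993, 0.993 and 0.983 in the control libraries, so all 3 testosterone libraries were scaled down.

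By level, the direction of the separated genes held under all 3 scalings at 3 of the 5 levels. After median-ratio scaling it was nearly even at 3 to 10 and at 30 to 100 FPKM. At 1 to 3 FPKM fewer separated genes were higher than lower: 67 against 83 as deposited, 61 against 99 after median-ratio scaling and 63 against 88 after quantile normalization. At 3 to 10 FPKM more were higher than lower: 186 against 148 as deposited, 164 against 161 after median-ratio scaling and 170 against 155 after quantile normalization. The same held at 30 to 100 FPKM: 377 against 236, 306 against 296 and 313 against 284. At 100 FPKM and above the direction flipped, with 151 higher and 129 lower as deposited, 121 and 169 after median-ratio scaling and 166 and 144 after quantile normalization. At 10 to 30 FPKM it also flipped, with 314 higher and 219 lower as deposited and 249 and 267 after quantile normalization.

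**Figure D2:**
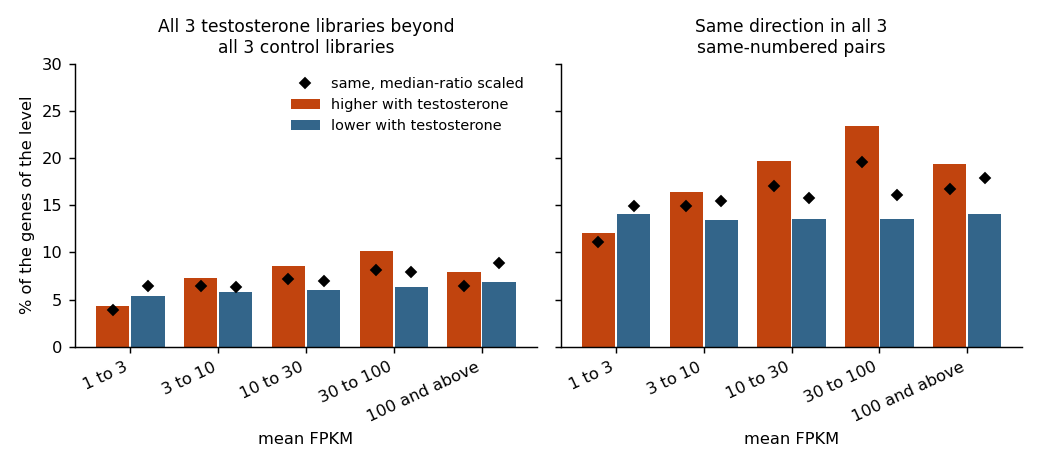
Share of genes of each level of mean FPKM (x axis) that were higher or lower with testosterone in all 3 libraries against all 3 control libraries (left) or in all 3 same-numbered pairs (right), in percent of the genes of the level (y axis); diamonds are the same shares after median-ratio scaling. At 30 to 100 FPKM the pairs agree on higher values for 23.4% of genes and on lower values for 13.5%, and after scaling for 19.6% and 16.1%; at 100 FPKM and above scaling turns the direction.

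The share of separated genes rose with the size of the difference, and many large differences were still not separated. Differences under 0.25 on the log2 scale made up 6539 genes (48.8%), of which 3.12% had separated groups. At 0.25 to 0.5 there were 3685 genes, with separated groups in 20.0%, and at 0.5 to 1 there were 2378 genes, with 29.8%. Between 1 and 2 there were 715 genes, 361 higher and 354 lower, with 31.9% separated. At 2 and above there were 79 genes, 27 higher and 52 lower, and 41.8% of these were separated.

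Values of exactly 0 went with the largest differences. At least 1 of the 6 libraries was listed at 0 for 607 genes (4.53% of the 13396). These were 1.65% of the genes that differed by under 0.25, 27.3% of those that differed by 1 to 2 and 72.2% of those that differed by 2 or more. Of the 1910 separated genes 56 had a 0 in some library. A listed 0 can also be a failed estimate, so the size of such differences is uncertain.

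In all, 4 identifiers are given as examples: in each direction, the separated gene with the largest difference and the one with the smallest p. Their standard errors and intervals take no account of this choice from 13396 genes. ENSTGUG00000010024 had the smallest p among the higher genes. Its level was 45.7, 50.8 and 35.7 FPKM in testosterone replicates 1 to 3 and 17.9, 11.8 and 10.5 FPKM in control replicates 1 to 3. The lowest testosterone library was well above the highest control library. The log2 difference was 1.67 (SE 0.25; 95% interval 1.06 to 2.27), with a limma adjusted p of 0.698, and 0.588 with the block. The pairs gave 1.31, 2.02 and 1.67.

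ENSTGUG00000006515 had the smallest p among the lower genes, and its testosterone libraries were the most alike of the 4 examples. It was at 126, 137 and 124 FPKM in testosterone replicates 1 to 3 and at 295, 426 and 436 FPKM in control replicates 1 to 3. The mean was 129 ± 7.04 FPKM in testosterone and 386 ± 78.7 FPKM in control libraries (SD, n = 3 each), and the groups did not overlap. The log2 difference was −1.55 (SE 0.19, 95% interval −2.02 to −1.09), with a limma adjusted p of 0.698 and an unadjusted p of 0.00013, the lowest of all genes. With the 12 nucleus taenia libraries in the limma fit its unadjusted p was 0.048, and with all 24 libraries it was 0.078. Pairs 1 to 3 gave log2 differences of −1.23, −1.63 and −1.81.

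ENSTGUG00000015187 showed the largest difference of the separated higher genes. It was at 31.8, 43.6 and 38.6 FPKM in testosterone replicates 1 to 3, at 16.6 FPKM in control replicate 1 and listed at 0 in control replicates 2 and 3. Across the series it was listed at 0 in 11 of 24 libraries. The log2 difference of 3.89 (SE 1.10, limma adjusted p = 0.698) was 6.10 with a pseudocount of 0.1 and 2.39 with a pseudocount of 5. Without control replicate 1 the gene passed in limma, with an adjusted p of 0.0131 and a log2 difference of 5.27. That library is the only control in which the gene was not listed at 0. The controls left then have no spread, so the call rests on this omission.

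ENSTGUG00000015719 showed the largest difference of all genes, and it was lower with testosterone. It was listed at 0 in testosterone replicates 1 and 2 and was at 52.6 FPKM in replicate 3, while control replicates 1 to 3 had 77.1, 74.6 and 248 FPKM. Control replicate 3 was more than the other controls together. The log2 difference of −4.92 (SE 1.57, limma adjusted p = 0.698) was −7.12 with a pseudocount of 0.1 and −3.39 with a pseudocount of 5. The block lowered its SE to 0.87 and its unadjusted p to 0.0023, against 0.018 without the block, both in limma.

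**Figure D3:**
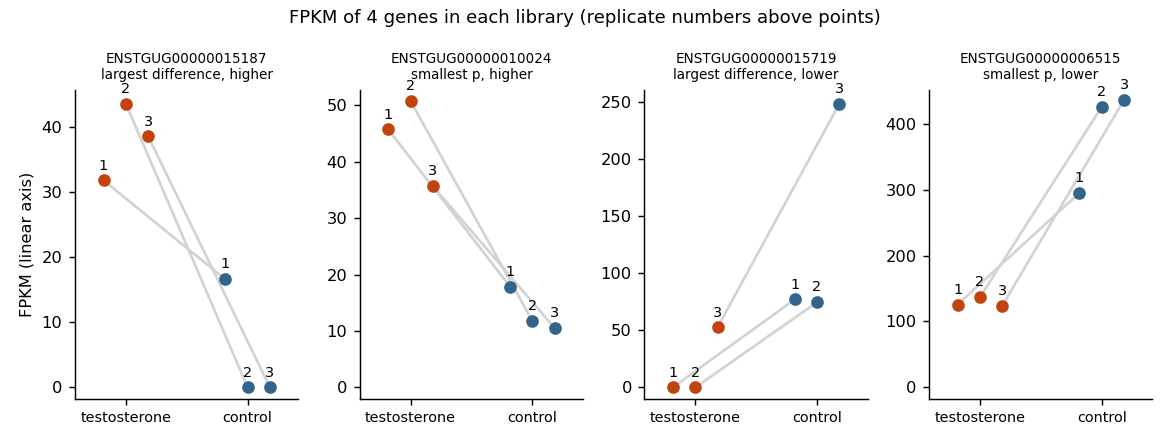
FPKM of 4 genes (y axes, linear and different in each panel) in testosterone and control libraries of the female nucleus taenia; each point is a library, numbers are replicates and grey lines join same-numbered libraries. No panel has overlapping groups; in 2 panels some libraries are listed at 0.

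The testosterone libraries resembled each other more than the control libraries did. The median absolute difference between testosterone libraries, on the log2(FPKM + 1) scale, was 0.24 between replicates 1 and 2, 0.28 between 1 and 3 and 0.31 between 2 and 3. Between control libraries it was 0.37 for replicates 1 and 2, 0.44 for 1 and 3 and 0.45 for 2 and 3. The 2 sets did not overlap, also without control replicate 3. The median within-group SD over genes was 0.24 in testosterone and 0.36 in control females, and it was smaller in testosterone for 67.5% of genes. This share was 59.3% at 1 to 3 FPKM and higher at each next level, up to 75.6% at 100 FPKM and above. The difference in spread was not tested, since it rests on 3 libraries a group.

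Testosterone libraries lay as near to some control libraries as to each other. The 3 same-numbered testosterone and control pairs differed by 0.28 to 0.48 and the 6 other-numbered ones by 0.28 to 0.50. Control replicate 3 was in the 3 largest of these 9 values. Control replicates 1 and 2 differed more from each other, by 0.37, than control replicate 2 did from any testosterone library, the highest of which was 0.31.

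**Figure D4:**
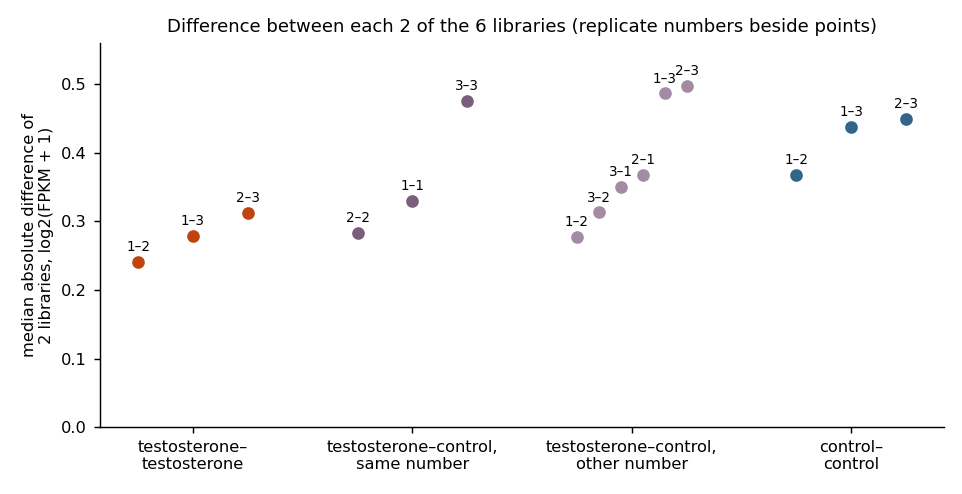
Median absolute difference between each 2 of the 6 libraries over 13396 genes, in log2(FPKM + 1) units (y axis), by kind of pair (x axis); the numbers beside points are the replicates, testosterone first in mixed pairs. The testosterone pairs lie at 0.24 to 0.31 and the control pairs at 0.37 to 0.45, and mixed pairs span 0.28 to 0.50.

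Within the 13396 genes, no other group of the series had a median within-group SD as low as the female nucleus taenia testosterone group. Among the other 7 groups it ran from 0.30 in male control hypothalamus to 0.60 in female testosterone hypothalamus. In the male nucleus taenia the order of the treatments was the reverse, with 0.54 in testosterone and 0.31 in control libraries. Single pairs of libraries elsewhere were as alike as those of this group. Replicates 2 and 3 of male control hypothalamus had a median absolute difference of 0.23. In female testosterone hypothalamus replicates 1 and 2 differed by 0.38, while replicate 3 differed from them by 0.99 and 0.82. All these values are descriptions without a test.

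The same genes were then looked at in libraries that took no part in this comparison. In 2 of the other groups a library stood apart: female testosterone hypothalamus replicate 3 had a mean r of 0.756 with the other 23 libraries and male testosterone nucleus taenia replicate 2 had 0.845, while the remaining 22 had 0.887 to 0.916. Results are therefore given with and without them. In female hypothalamus 56.9% of the 1095 genes that were higher in female nucleus taenia were also higher with testosterone, as were 39.6% of the 815 lower genes and 50.5% of all genes. Without testosterone replicate 3 of the hypothalamus these shares were 74.6%, 27.5% and 49.8%. The correlation of the treatment difference between the regions, across genes, was r = 0.155 with all libraries and 0.376 without that library. It was 0.295 when control replicate 3 of the nucleus taenia was left out as well, and 0.189 when control replicate 3 alone was left out. Without control replicate 3 fewer libraries have to agree, so separation is more frequent even without a treatment difference. The counts can therefore not be set against the 1095 and 815. Of the 13396 genes, 1629 were then separated upwards and 1164 downwards in the nucleus taenia. Of these, 67.5% and 32.1% were higher in testosterone hypothalamus without both libraries. With control replicate 3 alone left out, the shares were 57.3% and 41.5%.

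With testosterone replicate 3 of the hypothalamus left out, 9% of all genes were separated upwards in female hypothalamus and 9.11% downwards. Fewer libraries have to agree here too, so these shares cannot be set against those with all libraries. Of the 1095 higher genes of the nucleus taenia, 210 (19.2%) were separated upwards there and 24 (2.19%) downwards. Of the 815 lower genes, 158 (19.4%) were separated downwards and 12 (1.47%) upwards. With all libraries, 86 of the 1095 higher genes were separated upwards and 17 downwards, where 4.84% and 4.53% of all genes were. Of the 815 lower genes, 78 were then separated downwards and 9 upwards. Again without testosterone replicate 3 of the hypothalamus, the share of all genes that were higher in testosterone hypothalamus differed by level. At 3 to 10 FPKM 82.8% of the higher genes were higher again, where 57.5% of all genes were higher, and at 100 FPKM and above 62.9% were, where 31.8% of all genes were. Of the lower genes 63.9% were lower again at 1 to 3 FPKM, where 53.8% of all genes were higher, and 82.2% at 100 FPKM and above. Whether the regions were punched from the same birds is not labelled. With no library left out, the same-numbered pair differences of the regions correlated at r = 0.290 for number 1, 0.398 for number 2 and −0.027 for number 3. Hypothalamus pair 3 contains testosterone replicate 3, the library that stood apart. Pairs 1 and 2 of the nucleus taenia correlated at −0.243 and 0.0644 with it. Pair 3 of the nucleus taenia correlated at 0.393 with pair 1 of the hypothalamus and at −0.0689 with pair 2. Whether agreement between the regions follows the number was not tested. Pair 1 with hypothalamus pair 2 gave 0.0422 and pair 2 with hypothalamus pair 1 gave 0.0278.

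In male nucleus taenia the direction depended on 1 male library. With all libraries the treatment difference correlated at r = −0.22 across genes with that of females, and 34.3% of the 1095 higher genes and 65.2% of the 815 lower genes were higher in testosterone males, against 51.8% of all genes. Without male testosterone replicate 2 the correlation was 0.0806 and the shares were 61.3%, 36.6% and 50.7%. Without female control replicate 3 instead, the correlation was −0.123, and 40.1% of the 1629 genes then separated upwards and 61.7% of the 1164 separated downwards were higher in testosterone males. Without both libraries the correlation was 0.106 and these shares were 61.1% and 37.2%. Each female pair correlated below 0 with male pair 2, at −0.226, −0.314 and −0.308. With all libraries, separated groups were found for 753 of the 13396 genes (5.62%) in male nucleus taenia, 3.26% higher and 2.36% lower. In female hypothalamus they were found for 1256 genes (9.38%), 4.84% higher and 4.53% lower.

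In the male hypothalamus, which shares neither sex, region nor library with the comparison above, the testosterone minus control difference correlated at r = 0.344 with that of the female nucleus taenia across the 13396 genes. At 1 to 3 FPKM r was 0.216, and at 100 FPKM and above it was 0.466. Of the 1095 genes that were higher in female nucleus taenia 60.0% were higher with testosterone there, as were 30.3% of the 815 lower ones and 45.5% of all genes. Groups were separated for 2246 of the 13396 genes (16.8%), 8.14% higher and 8.63% lower. Of the 1095 higher genes, 135 were separated upwards and 36 downwards in the male hypothalamus. Of the 815 lower genes, 102 were separated downwards and 17 upwards there. At 1 to 3 FPKM 35.8% of the higher and 18.1% of the lower genes were higher with testosterone, against 36.1% of all genes. This comparison was not repeated with a library left out. These values were not tested, and genes are not independent replicates.

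**Figure D5:**
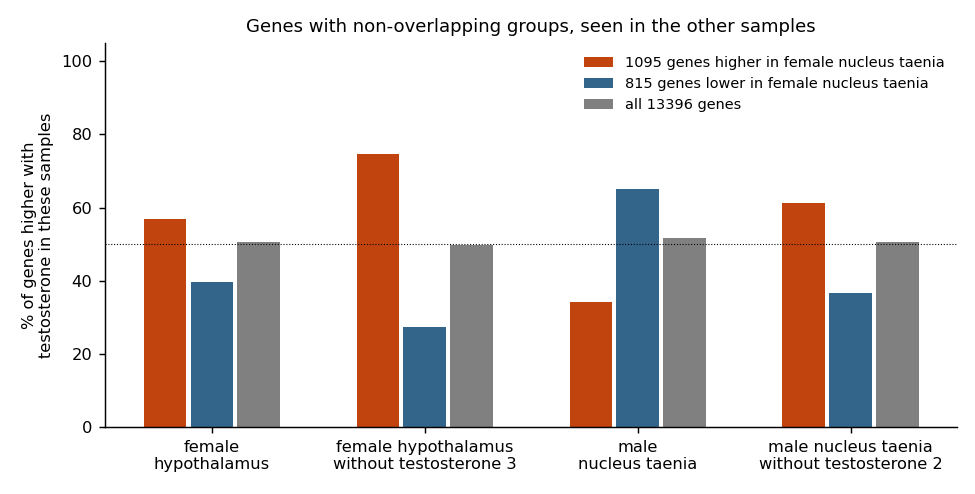
Share of genes that were higher with testosterone than with oil, in percent (y axis), in female hypothalamus and male nucleus taenia with and without 1 library (x axis), for genes with separated groups in female nucleus taenia and for all genes. Leaving out the library widens the split to 74.6% and 27.5% in the hypothalamus and gives 61.3% and 36.6% in males, where it was 34.3% and 65.2% with the library.

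The treatment difference of the female nucleus taenia was tested against that of the male nucleus taenia and that of the female hypothalamus, gene by gene. It was not tested against that of the male hypothalamus. The treatment difference between females and males in the nucleus taenia passed an adjusted p of 0.05 in limma for 0 of 13551 genes (0%), and the smallest adjusted p was 0.865. Unadjusted, 528 genes (3.9%) had a p under 0.05. The treatment difference between nucleus taenia and hypothalamus in females passed for 0 of 13562 genes (0%), where the smallest limma adjusted p was 0.896. Unadjusted, 264 genes (1.95%) had a p under 0.05. Both unadjusted shares lay below the 0.05 of genes that would be reached on average without any difference. The 95% intervals reached a median of 1.12 (2.18-fold) and 1.27 (2.41-fold) on the log2 scale to either side. Leaving out testosterone replicate 1 of the female hypothalamus raised the unadjusted region count to 1489, and leaving out replicate 3 gave 257. The sex count was 1344, 325 and 1238 without male testosterone replicates 1, 2 and 3, of which replicate 2 is the library that stood apart. It was 314 without female control replicate 3.

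The examples differed among themselves in the other samples. ENSTGUG00000006515 was at 362, 489 and 1718 FPKM in testosterone and 987, 200 and 188 FPKM in control female hypothalamus, and at 471, 1395 and 194 FPKM in testosterone and 1045, 290 and 183 FPKM in control male nucleus taenia. Its groups overlapped in both, and no library there was as low as the female nucleus taenia testosterone libraries. ENSTGUG00000010024 was at 13.9, 7.65 and 21.5 FPKM in testosterone and 11.3, 4.49 and 8.84 FPKM in control female hypothalamus. In male nucleus taenia it was at 14.8, 3.45 and 18.1 FPKM in testosterone and 8.87, 28.7 and 26.6 FPKM in control libraries. Every one of these values lay below the testosterone libraries of the female nucleus taenia. The sex difference of its treatment difference was 2.53 on the log2 scale (SE 0.79, limma adjusted p = 0.865). ENSTGUG00000015719 was listed at 0 in 9 of the 24 libraries. In male nucleus taenia it was at 77.4, 255 and 116 FPKM in testosterone libraries, listed at 0 in control replicates 1 and 2 and at 174 FPKM in control replicate 3.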

How the data were processed

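RNA was measured in 24 libraries made with a strand-specific KAPA kit, per the labels' protocols. The authors deposited FPKM values for 17475 genes; the submitters' processing notes name cutadapt 1.9.1, TopHat2 2.1.1 and also Cufflinks 2.2.1. Genome build: not given in the sources used here. FPKM scales with the sum of a library, so a few abundant genes can shift all its other values. Genes with a mean of at least 1 FPKM over the 6 libraries were tested on the log2(FPKM + 1) scale by limma 3.58.1 (R 4.3.3), with trended moderation and Benjamini-Hochberg adjustment at 0.05; fold changes on this scale understate those of low genes. The script was tested on simulated data. The interaction tests used the 12 nucleus taenia or the 12 female libraries, with genes of mean at least 1 FPKM over them. Relative depth came from the commonest ratio of values under 0.2 FPKM in each of 276 pairs of libraries; 26.4% of pairs lay within 3% of the fitted depths, so it is rough. The labels give no batch.

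Replicate numbers are shared between groups, and the labels give them no meaning. Deviations of same-numbered testosterone and control libraries from their group means correlated at 0.171, 0.229 and 0.150 across genes, and those of other-numbered ones at −0.156 to −0.000932. Deviations cancel out within a group, so positive values for same-numbered libraries push those of other-numbered ones below zero. The contrast is therefore partly built in. By the rule that all 3 exceed 0.1, the numbers were taken to pair these libraries, from the data alone. The pairing remains an assumption. The genes, levels, examples and tests were chosen with earlier results of these data known. The rule for examples took the separated gene of largest difference and that of smallest p in each direction. Alternatives were other pseudocounts, filters, scalings and fits, the block, and leaving out each library. Gene lists by symbol could not be used. Figures were drawn with matplotlib 3.10.9.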

Additional observations from a re-analysis of the deposited data

How the results depend on the processing

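No gene past the adjusted threshold in limma was found with any pseudocount, filter, scaling, robust moderation, replicate block or larger set of libraries; leaving out 1 library gave 0 to 4 genes. The median log2 difference of 0.03 was −0.0045 after median-ratio scaling and 0.010 after quantile normalization, and 0.025 to 0.036 without 1 library; the median absolute difference was 0.22 to 0.33 without 1 library. At an unadjusted p under 0.05 in limma, 481 of 13396 genes were higher and 403 lower with the 6 libraries. Higher and lower genes were 229 and 175 with the 12 nucleus taenia libraries in the fit and 207 and 152 with all 24. The larger fits pool a larger spread from the other groups. Without 1 library the counts of higher and lower genes were 218 to 933 and 226 to 816. Separated genes were then 1585 to 2376 higher and 1164 to 2049 lower, and genes agreeing in the 2 remaining pairs 4054 to 4209 and 2947 to 3469; fewer libraries have to agree. With the replicate block, higher and lower genes were 672 and 451, and with median-ratio scaling added, chosen after seeing the data, 567 and 550; the pairing changed no adjusted call. The sex and region differences gave 424 and 301 genes at an unadjusted p with the block, 314 to 1344 and 120 to 1489 without 1 library, and 0 to 1 and 0 to 1 past the adjusted threshold. Depth is unknown, so the precision of single low values is too.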
